A study of Mus musculus with 6 samples.

Results

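The genes described here build, load and control the proteins that display peptides to T cells, and they were read in haematopoietic stem cells (HSCs), the cells at the root of blood formation. They are 9 of the 17068 genes in each table, taken from the tables by their gene names. The 6 class II genes are Ciita, H2-Aa, H2-Ab1, H2-Eb1, Cd74 and H2-DMa, and the 3 class I genes are H2-K1, H2-D1 and B2m.

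The HSCs were sorted from bone marrow of mice with the genotype Gfp-Lc3, a GFP fusion of LC3, a protein of the autophagosome, carried by every group. Old mice and young mice were each studied after a 24 hr fast, after a 24 hr fast with 24 hr of refeeding, and with food ad lib. Each of these 6 groups was 1 droplet single-cell library from 1 mouse, and neither the age of the mice nor the gates of the sort are given in the labels. The values came from the authors' comparisons of 11 clusters, numbered 0 to 10, each set against the remaining cells of the 6 libraries together, so no level per animal, age or feeding group was analysed here and no value has an error between animals.

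Class II molecules take up peptides in endosomes and show them to helper T cells. Their alpha and beta chains are held ready by the invariant chain, and the DM molecule then swaps the invariant chain's last fragment for a peptide. CIITA, a co-activator that does not itself bind DNA, is the master switch of the class II genes. Class I molecules, a heavy chain on beta-2 microglobulin, show peptides made by the proteasome to cytotoxic T cells on nearly all nucleated cells. NLRC5, a relative of CIITA, drives the class I genes through a like promoter element. Blood stem and progenitor cells carry class I, and have also been described as presenting antigen on class II.

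The 2 classes share a control element in front of their genes, an X box that RFX and CREB proteins bind followed by a Y box that NF-Y binds, and its letters could be read next to the genes measured. Start regions of 6 of the 9 genes (RefSeq, GRCm38.p6, 250 bases before the start and 50 after) were searched on both strands for TGANG, the core of the X2 part of the X box, followed by the Y box ATTGG. The distance from one start to the other had to be 22 to 28 bases. H2-Aa and H2-Eb1 of class II and B2m, H2-K1 and H2-D1 of class I all held the pair, on the strand of the gene. Of all 32851 start regions, 1.92% held the pair on either strand. H2-DMa did not hold it in either of its 2 windows. Both, from 34122582 and 34125268, lie inside the gene as GENCODE vM21 draws it (34119541 to 34139101). The start of that span was not searched, so the absence covers these 2 windows only. H2-DMb1, its partner chain and not among the 9 genes, held the pair. The stretches below are read 5′ to 3′ on the gene's strand, with both motifs in capitals. Where 2 overlapping X2 matches stood before the Y box, the nearer one is marked.
H2-Aa (chr17:34287855-34287917, minus strand): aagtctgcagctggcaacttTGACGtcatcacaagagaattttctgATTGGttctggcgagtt
H2-Eb1 (chr17:34305764-34305824, plus strand): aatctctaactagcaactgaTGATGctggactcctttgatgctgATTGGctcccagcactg
B2m (chr2:122147589-122147650, plus strand): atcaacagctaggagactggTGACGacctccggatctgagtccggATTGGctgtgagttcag
H2-K1 (chr17:34000347-34000408, minus strand): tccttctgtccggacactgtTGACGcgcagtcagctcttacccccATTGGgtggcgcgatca
H2-D1 (chr17:35262973-35263034, plus strand): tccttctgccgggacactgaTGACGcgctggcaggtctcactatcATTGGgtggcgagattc

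The distance between the 2 motifs was 26 bases in H2-Aa, 24 in H2-Eb1 and 25 in each of B2m, H2-K1 and H2-D1. The Y box began 48 bases before the start in H2-Aa, 59 in H2-Eb1, 53 in B2m, 16 in H2-K1 and 76 in H2-D1. H2-K1 has a second RefSeq start, from which its Y box lay 30 bases away. Taken singly the letters are common: ATTGG stood in 37.4% and TGANG in 89.4% of all start regions on either strand. A match is a run of letters and not a measured binding site. In the annotation (GENCODE vM21, the same GRCm38 build), H2-K1, H2-DMa, H2-Ab1, H2-Aa, H2-Eb1 and H2-D1 lie in this order along chromosome 17, from 33996017 to 35267499, and B2m lies on chromosome 2 and Ciita on chromosome 16.

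**Figure D1:**
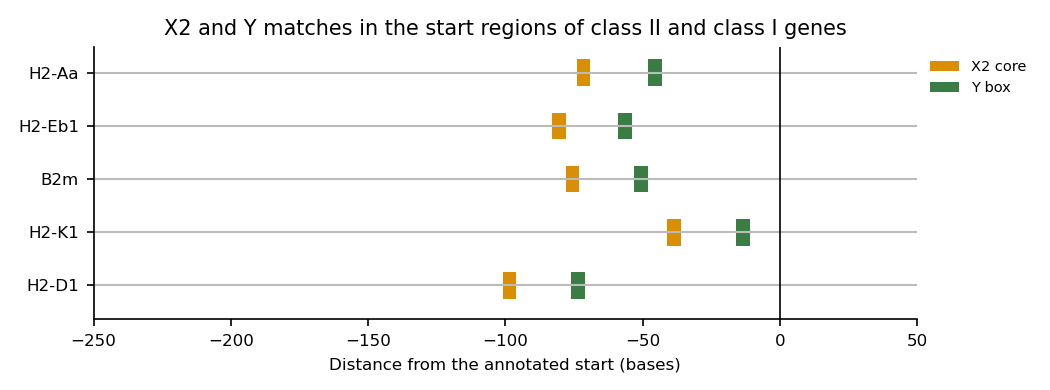
Position of the X2 and Y motif pair in the start regions of H2-Aa, H2-Eb1, B2m, H2-K1 and H2-D1, in bases from the annotated start (0); each grey line is a window from 250 bases before to 50 after it. The pair lies between 101 and 16 bases before the start in all 5 genes, nearest to it in H2-K1.

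The tables cover 22378 cells, in clusters of 4904, 3955, 3910, 3802, 3747, 1188, 310, 267, 173, 112 and 10 cells in the order of their numbers. The cells whose totals could be read had a median of 11707 counts (4239 to 22599, 19 genes seen in a single cell). The 9 HSC markers were all detected, with a summed level between 11.6 and 18.8 counts per 10000 in clusters 0 to 9. Many defining markers of other antigen-presenting cells were near 0: the B cell markers Cd79a, Ms4a1 and Pax5, 3 of 7 dendritic cell markers (Clec9a, Batf3 and Klrd1) and 5 of 10 monocyte or macrophage markers (among them Csf1r and Adgre1) had mean levels below 0.01 counts per 10000. The summed level of the dendritic cell list lay between 3.49 and 4.48 in clusters 0 to 9, and that of the monocyte list between 2.26 and 3.16. Other markers of these lists were not near 0: the B cell marker Cd79b had a mean level of 0.368 counts per 10000, with at least 32.7% of cells holding a count, and Vpreb1 one of 0.0288. Most of the dendritic cell sum was Cst3 (3.94 over all cells), and most of the monocyte sum was Lyz2 (2.66). Whether cells of another type or free RNA added to the class II counts was not tested, since the tables hold no cell type that lacks class II.

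Levels were rebuilt on the scale of the deposited folds, as the counts per 10000 that correspond to the average over cells of ln(1 + counts per 10000). They count molecules per gene and are not divided by length, so they are compared within a gene across clusters. The clusters had been defined on these genes among others, so that the levels below describe clusters and do not test them. Beside a fold, a gene was called when the log2 fold change of a cluster over all other cells that the authors deposited was 0.5 or more in size and the adjusted p beside it, a test over cells used only as a filter on noise, was under 0.05. Over all genes with a count, the authors' deposited tables had a median fold of -0.23 for cluster 6, 0.13 for cluster 8 and 0.37 for cluster 10, and for each of the others one within 0.1 of 0.

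Cd74, the invariant chain, varied most of the 9 genes among clusters 0 to 5, with a ratio of 2.11 between highest and lowest. Its level was 0.301, 0.627, 0.635, 0.446, 0.538 and 0.558 in clusters 0 to 5, and 0.459, 0.400, 0.167 and 0.318 in clusters 6 to 9, in the order of their numbers. Clusters 1 and 2 were thus at the top and nearly level, and clusters 0, 9 and 8 at the bottom, and the ratio over all 10 of these clusters was 3.81. The authors' deposited tables gave it log2 folds of -0.87 in cluster 0 and -1.57 in cluster 8, the only 2 clusters where it was called. Its folds for clusters 1 and 2, 0.43 and 0.46 in the authors' deposited tables, stayed under the threshold of size. Cluster 9, at -0.63 in the authors' deposited table, was past that size but not the filter on noise.

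The alpha chain H2-Aa reached 0.282, 0.420, 0.347, 0.304, 0.379, 0.428, 0.279, 0.337, 0.0986 and 0.230 in clusters 0 to 9 in this order. The beta chain H2-Ab1, its partner in the I-A molecule, reached 0.341, 0.410, 0.298, 0.298, 0.346, 0.418, 0.290, 0.287, 0.200 and 0.317 in clusters 0 to 9 in this order. Both were highest in cluster 5, closely followed by cluster 1, and lowest in cluster 8, but the range was 4.34-fold for the alpha chain and 2.09-fold for the beta chain. H2-Eb1, the beta chain of the I-E molecule, reached 0.189, 0.280, 0.200, 0.194, 0.235, 0.273, 0.209, 0.160, 0.0717 and 0.131 in clusters 0 to 9, a 3.90-fold range with cluster 1 at the top and cluster 8 again at the bottom.

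Cluster 8, with 173 cells, had the lowest level of Cd74 and of all 3 chains. The log2 folds in the authors' deposited table were -1.81 for H2-Aa, -1.61 for H2-Eb1, -1.57 for Cd74 and -0.77 for H2-Ab1, so 4 of 6 class II genes were called there, all lower, where the same rule called 21.9% of all genes in either direction and 7.05% of the genes with a count in that cluster. These values rest on few molecules. From the levels, the cell numbers and the median total, Cd74 had about 75 counts in the cluster (95% exact Poisson interval 59.0 to 94.0), H2-Aa about 35 (24.4 to 48.7), H2-Ab1 about 63 (48.4 to 80.6) and H2-Eb1 about 24 (15.4 to 35.7). The intervals cover counting error only. They leave out the unevenness of these genes from cell to cell and that of the totals per cell, so they are too narrow as a sampling error. The other 2 class II genes did not share the call: H2-DMa was at 0.20 and Ciita at -0.66 in the authors' deposited table, the last from about 5 counts (1.62 to 11.7). Some HSC markers moved in this cluster too: 4 of 9 were called lower and none higher. In the authors' deposited table Ly6a was at -1.16, Procr at -0.80, Mllt3 at -0.67 and Slamf1 at -0.67. The others were not called, among them Kit at 0.32 and Hlf at 0.17 in the authors' deposited table. The median of the 9 was -0.16 and their summed level 13.8. Of the 7 dendritic cell markers 3 had no count there and 1, Irf8, was called lower. The mean level of Irf8 over all cells was low, 0.0404, where that of Ciita was 0.0355, so this call rests on few counts. The median fold of the dendritic cell markers with a count was -0.65 in the authors' deposited table. The summed level of that list, nearly all Cst3, was 4.48. The part of such cells in the class II values was not tested.

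Cluster 9, with 112 cells, was next. H2-Eb1 was called lower (-0.74 in the authors' deposited table), 1 of 6 class II genes against 21.1% of all genes and 3.58% of those with a count there. Cd74 at -0.63 and H2-Aa at -0.58 in the authors' deposited table had a like size without passing the filter, and H2-Ab1 was at -0.10. All 6 class II folds lay below all 3 class I folds in this cluster. The count of H2-Eb1 was about 28 (18.6 to 40.5).

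In cluster 0, the largest, Cd74 was the 1 class II gene called, against 9.02% of all genes. HSC markers were lower beside it: 5 of 9 were called lower and none higher, with Procr at -0.94 and Ly6a at -0.79 and a median of -0.55 in the authors' deposited table, and their summed level was 11.8. The chains did not follow it evenly: H2-Aa was at -0.36, H2-Eb1 at -0.26 and H2-Ab1 at 0.01 in the authors' deposited table, while H2-DMa was at 0.41. Levels of Cd74 and of H2-Ab1 thus had different orders over clusters 0 to 2: Cd74 was lowest in cluster 0 and high in cluster 2, whereas H2-Ab1 was 0.341 in cluster 0 and 0.298 in cluster 2.

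H2-DMa, a chain of the DM molecule that loads peptides, had an order of its own. Its level was 1.14, 0.995, 0.689, 0.834, 0.898, 0.950, 0.883, 0.790, 1.06 and 0.768 in clusters 0 to 9. Cluster 8, where the chains and Cd74 were lowest, was its second highest cluster, and cluster 0 its highest. The range was 1.65-fold and it was called nowhere. The fold in cluster 2, -0.49 in the authors' deposited table, came closest.

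Ciita, the class II co-activator, was near the limit of what these libraries resolve, at a mean level of 0.0355 counts per 10000. Its log-averaged level lay between 0.0108 in cluster 6 and 0.0354 in cluster 7. It was called in cluster 6, at -1.22 in the authors' deposited table, 1 of 6 class II genes against 26.2% of all genes and 14.4% of those with a count there, from about 6 counts in 310 cells (2.20 to 13.1). The highest class II fold of clusters 0 to 9, 0.51 in cluster 7 in the authors' deposited table, was also Ciita, from about 16 counts (9.15 to 26.0), and it was not called. Its counts do not resolve an order of the small clusters. In clusters 0 to 4, with about 138 to 219 counts each, the levels were 0.0268, 0.0254, 0.0232, 0.0254 and 0.0220.

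No class II gene was called in cluster 1 (2.53% of all genes called), cluster 2 (6.51%), cluster 3 (2.61%), cluster 4 (1.74%), cluster 5 (5.01%), cluster 7 (26.2%) or cluster 10 (29.4%). In the last, of 10 cells, the log2 fold of H2-Aa was 0.78 in the authors' deposited table, from about 12 counts (6.20 to 21.0). In clusters 5 to 10 most called genes were ones with no count in the cluster, and among genes with a count the shares were 1.08% in cluster 5, 13.5% in cluster 7 and 2.73% in cluster 10.

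**Figure D2:**
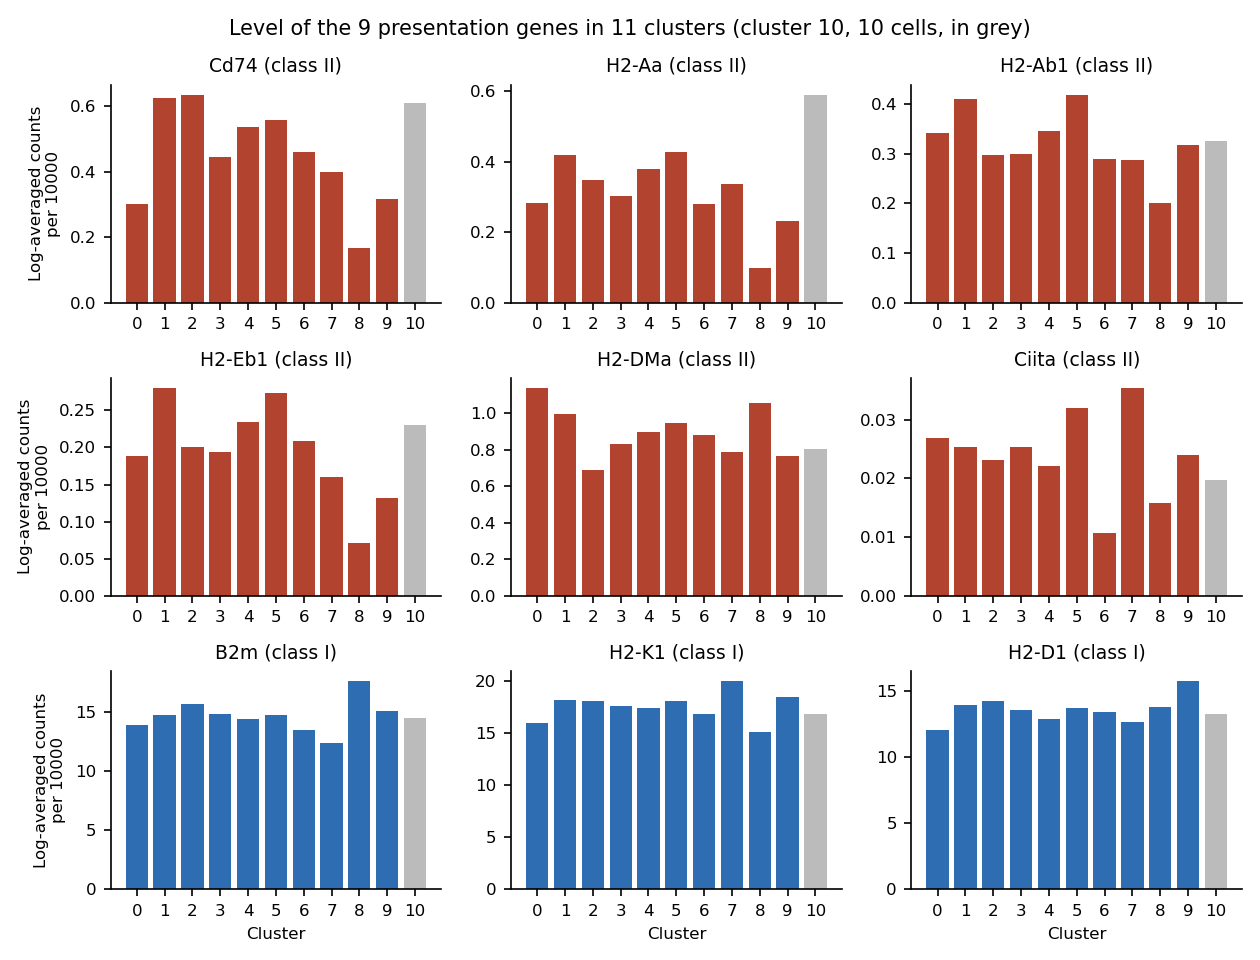
Log-averaged level in counts per 10000 (vertical axis, from 0, own scale in each panel) of the 6 class II genes in red and the 3 class I genes in blue in each of the 11 clusters (horizontal axis); there are no error bars, since the cells were pooled over 6 libraries. Cd74, H2-Aa, H2-Ab1 and H2-Eb1 share a lowest bar in cluster 8, where H2-DMa is at 1.06 and B2m at its highest, 17.5.

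Class I was flat beside this. B2m, the light chain, lay between 12.3 (cluster 7) and 17.5 (cluster 8). The heavy chain H2-K1 lay between 15.1 (cluster 8) and 20.0 (cluster 7), and the heavy chain H2-D1 between 12.1 (cluster 0) and 15.8 (cluster 9). The ratios of highest to lowest were 1.43, 1.32 and 1.30. Class I genes were called in no cluster, and their 30 folds over clusters 0 to 9 lay between -0.25 and 0.27 in the authors' deposited tables. Among the large clusters 0 to 5 all 3 were lowest in cluster 0, with folds of -0.09, -0.16 and -0.18 there in the authors' deposited table.

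In clusters 7 and 8 the folds of the light chain and the K heavy chain had opposite signs. In cluster 8 the log2 folds were 0.27 for B2m, 0.05 for H2-D1 and -0.20 for H2-K1 in the authors' deposited table, and in cluster 7 they were -0.25 for B2m, -0.07 for H2-D1 and 0.20 for H2-K1. Each value was under the threshold of size. H2-K1 and H2-D1 belong to a family with near-identical copies. Of the 60-base words of the longest coding transcript, 3.97% of H2-K1 and 9.74% of H2-D1 also occur in transcripts of other genes, and of the last 500 words, the end that droplet libraries usually read, 0 and 4.4% do. Reads could be split between such copies, so both are uncertain to that extent, and none of the other 7 genes shares a word.

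Set against each other, class II had the wider folds in the authors' deposited tables. Over clusters 0 to 9 its 60 folds ran from -1.81 to 0.51 with a median size of 0.23, and the 30 class I folds had a median size of 0.07. Of these, 28 class II and 2 class I folds were at least 0.25 in size. The median class II fold minus the median class I fold was 0.03, 0.27, -0.26, -0.21, 0.11, 0.28, -0.12, -0.16, -1.22 and -0.51 in clusters 0 to 9, and 0.02 in cluster 10. In cluster 0 the difference has no settled direction, since it was -0.10 without Ciita and -0.01 with means in place of medians. In cluster 7 it was 0.02 with B2m alone as class I, and in cluster 8 it was -0.73 with summed levels. Cd74 and the 3 chains all lay above every class I fold in clusters 1, 4 and 5 and all lay below in clusters 3, 8 and 9. In cluster 2 they were divided, with Cd74 above class I at 0.46 in the authors' deposited table and H2-Aa, H2-Ab1 and H2-Eb1 below it, at 0.02, -0.23 and -0.15. Class II genes have fewer counts than class I genes in these libraries, and counting error widens the folds of genes with few counts. How much of the difference in width this accounts for was not tested. The widest class II folds, those of cluster 8, are the ones with about 24 to 75 counts, and in clusters 0 to 5 each class II gene other than Ciita had at least 625 counts per cluster.

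**Figure D3:**
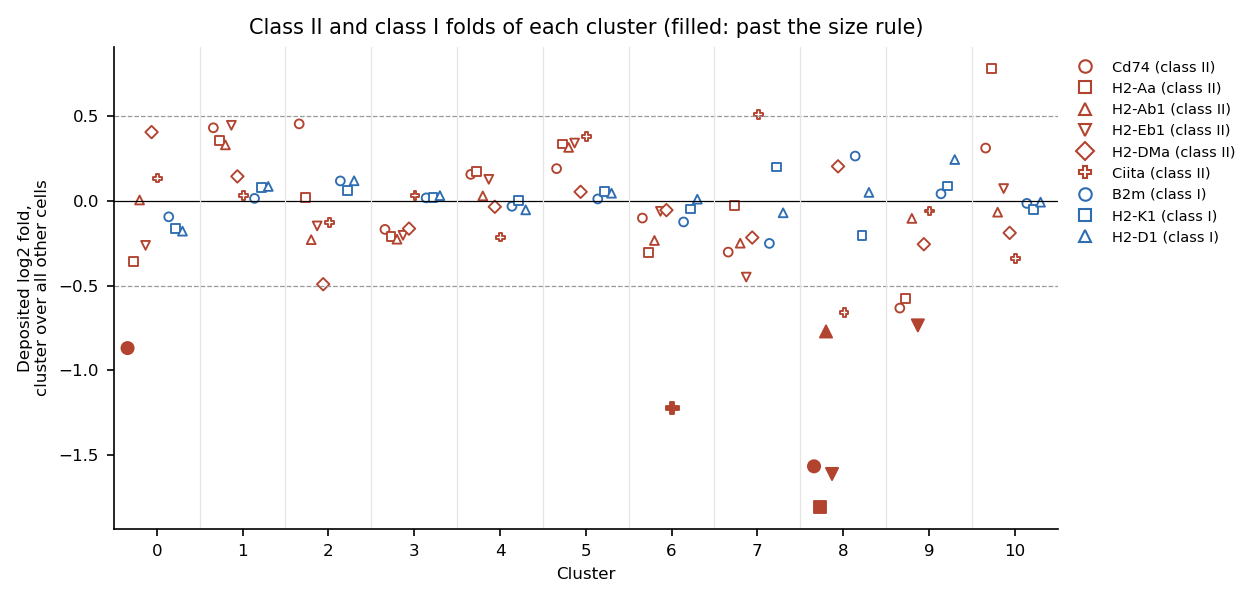
Deposited log2 fold of each cluster over all other cells (vertical axis) for class II genes in red and class I genes in blue, by cluster (horizontal axis); filled marks passed both the fold threshold and the filter on noise, and dashed lines stand at -0.5 and 0.5. All 7 filled marks are class II genes and lie below -0.5, 4 of them in cluster 8, while class I marks stay between -0.25 and 0.27.

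Cd74 and the 3 class II chains were also uneven from cell to cell, more so than most genes of their level. The mean and SD over cells of ln(1 + counts per 10000) were rebuilt for 10641 genes. Cd74 had an SD of 0.670, and none of the 485 genes within 0.25 log2 units of its mean level had a larger one (median 0.471). H2-Aa had an SD of 0.512, again with 0 of 877 like genes above it (median 0.413). H2-Ab1, at 0.457, was exceeded by 9 of 996 like genes (median 0.398), and H2-Eb1, at 0.403, by 5 of 1245 (median 0.349). H2-DMa and Ciita were not set apart in this way: H2-DMa, at 0.503, was exceeded by 68 of 422 genes and Ciita, at 0.126, by 205 of 393. Class I SDs were 0.332 for B2m, 0.339 for H2-K1 and 0.376 for H2-D1, exceeded by 9 of 13, 6 of 15 and 4 of 11 like genes.

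The same numbers give a lower bound on the share of cells with at least 1 count, since a given mean and SD cannot be packed into fewer cells. For Cd74 at least 26.3% of cells had a count, where the median bound of genes of like level was 62.4%. The bounds were 25.0% for H2-Aa (like genes 45.1%), 29.1% for H2-Ab1 (41.5%) and 19.3% for H2-Eb1 (31.6%), against 62.6% for H2-DMa (64.9%). At the same mean level, then, the molecules of Cd74 and the chains were concentrated in fewer cells, or more unevenly spread over them, than those of most genes. In cluster 8 the bound fell to 13.3% for Cd74 and 10.9% for H2-Aa, against 31.4% for Cd74 in cluster 1 and 30.7% for H2-Aa in cluster 5. For class I the bounds were 98.6% for B2m, 98.7% for H2-K1 and 98.0% for H2-D1, so nearly every cell held a count. Their lowest bounds among clusters 0 to 9 were in cluster 7 for B2m (91.9%) and H2-D1 (92.9%) and in cluster 6 for H2-K1 (96.8%). The SD of B2m in cluster 7 was 0.769, against 0.308 to 0.327 in clusters 0 to 5, and the part of depth in this was not tested.

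Most of this spread lay inside the clusters. The variance between clusters was 1.77% of the total for Cd74, 0.72% for H2-Aa, 0.53% for H2-Ab1, 0.61% for H2-Eb1, 2.46% for H2-DMa and 0.061% for Ciita. It was 1.73% for B2m, 2.14% for H2-K1 and 2.27% for H2-D1. Over all 10641 genes the median was 0.167%. H2-DMa and Cd74 were therefore among the genes more strongly divided by cluster at their level, with 19 of 422 and 29 of 485 like genes above them, while all 13 genes like B2m and all 15 like H2-K1 had a larger share than it. Which cells within a cluster carried the class II counts, and from which of the 6 libraries, was not analysed here.

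**Figure D4:**
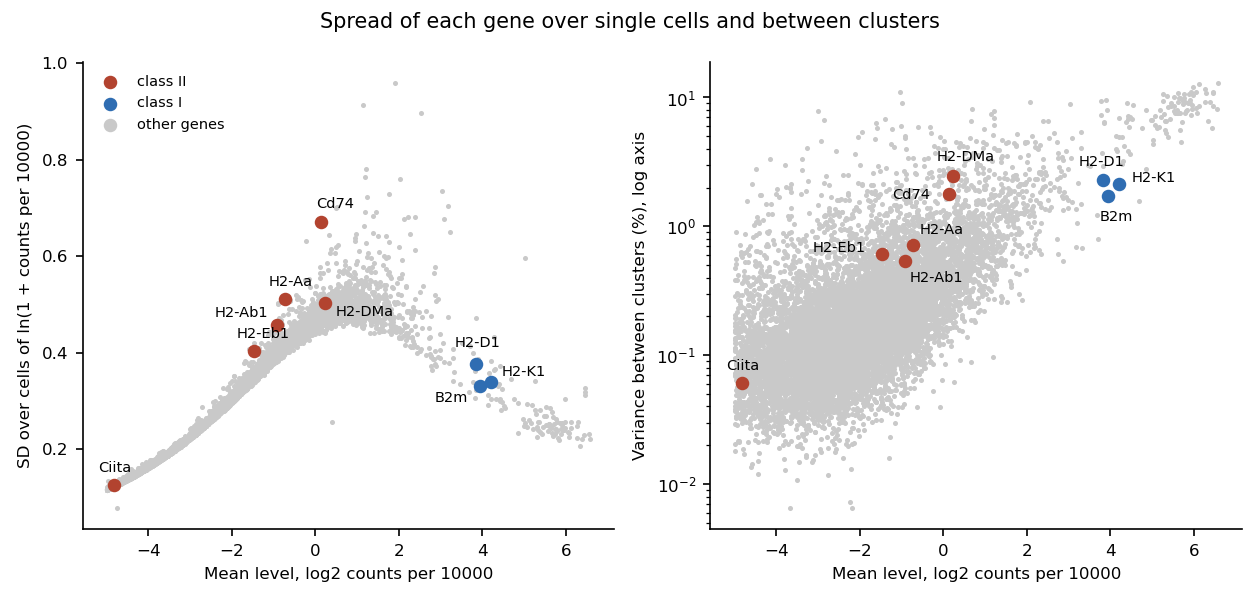
SD over cells of ln(1 + counts per 10000) (left) and percent of the variance that lies between clusters (right, log axis) against the mean level in log2 counts per 10000, for 10641 genes in grey, class II genes in red and class I genes in blue. Cd74 (SD 0.670), H2-Aa, H2-Ab1 and H2-Eb1 lie at the upper edge of the genes of their level on the left, and H2-DMa and Cd74 are high on the right.

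The folds of the chains and of Cd74 ran together over clusters 0 to 9. Pearson's r, given as a description over 10 clusters that are parts of each other's comparison and share libraries, was 0.95 for H2-Aa with H2-Eb1, 0.91 for Cd74 with H2-Aa, 0.89 for Cd74 with H2-Eb1, 0.88 for H2-Ab1 with H2-Eb1, 0.85 for H2-Aa with H2-Ab1 and 0.68 for Cd74 with H2-Ab1. Over clusters 0 to 5 alone, without the small clusters in which 4 of them are lowest, the first stayed at 0.95 and the last was 0.21. H2-DMa with Cd74 gave -0.45 over clusters 0 to 9 and -0.64 over clusters 0 to 5. Over clusters 0 to 5 Cd74 ran closest, of the other 8 genes, to the class I gene H2-K1, at 0.95.

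Of 8232 genes compared, those whose folds were most like Cd74 were Pde6h (0.95), Hacd4 (0.92), the stem cell antigen Ly6a (0.91), Hs3st1 (0.91) and Emc9 (0.91). Those most like the mean of H2-Aa, H2-Ab1 and H2-Eb1 were Tmem273 (0.98), Abhd17b (0.91), Myo1d (0.90), Immp2l (0.90) and Derl1 (0.89). Those most like the mean of B2m, H2-K1 and H2-D1 were the lysosomal protease Ctsl (0.93), Slc31a2 (0.91), Ctsc (0.89), the class I peptide editor Tapbpl (0.89) and Laptm4b (0.89). All of these are Pearson's r over clusters 0 to 9. Over clusters 0 to 5 alone, the genes most like the chains gave 0.93, 0.99, 0.70, 0.38 and 0.59 in the same order. Those most like Cd74 stayed at 0.90 or above, and those most like class I at 0.88 or above.

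Other genes of the 2 pathways were counted from lists. Of 5 other class II chains measured, 4 were called in any of clusters 0 to 9. Of all genes, 38.8% were called in at least 1 of these clusters with a count there. H2-DMb1, the partner of H2-DMa, was called nowhere, and the authors' deposited tables gave it -0.49 in cluster 8 and 0.23 in cluster 1. H2-Ob, a chain of the DO molecule that restrains DM, was called in 4 clusters (in the authors' deposited tables at 1.26 in cluster 0, -1.11 in cluster 2 and -2.85 in cluster 9 among them), at a low mean level of -4.49 log2 counts per 10000. H2-Oa, its partner, was called at -1.22 in cluster 7 in the authors' deposited table. H2-DMb2 (-1.86 in cluster 6) and H2-Eb2 (1.29 in cluster 0) were called at very low levels, with these folds in the authors' deposited tables.

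Of 12 class II regulators measured, 4 were called in any of clusters 0 to 9 with a count there. The share of all genes called in this way was 38.8%, and no difference is read from so few genes. In cluster 8, where the chains were lowest, Spi1, the myeloid factor PU.1, was at 0.82 in the authors' deposited table. Irf8, a factor of dendritic and monocytic cells, was at -1.46 there in the authors' deposited table. The mean level of Irf8 over all cells was only 0.0404, so its fold in this small cluster rests on few counts. Spi1 was also called in cluster 7, at -0.72 in the authors' deposited table. The authors' deposited tables put Rfxap, a subunit of the RFX complex on the X box, at -0.66 in cluster 7 and Creb1 at -0.54 in cluster 6. The other RFX subunits and the 3 NF-Y subunits were called nowhere.

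Of 10 genes of peptide supply and turnover in the class II route, 3 were called in any of clusters 0 to 9. Of all genes 38.8% were, and no difference is read here either. The authors' deposited tables put the protease Ctsh at -0.84 in cluster 0 and 0.64 in cluster 2, and Ctss, the protease that trims the invariant chain, at -1.64 in cluster 9 but 0.98 in cluster 6. Ctss was also called in cluster 5 (-0.54 in the authors' deposited table). Its mean level over all cells was low, 0.0607, where that of Ciita was 0.0355. The folds of Ctss in the small clusters 6 and 9 therefore rest on few counts, and no size is read from them. In cluster 0 Ctsh, Ctss and Lgmn were all called lower (3 of 10, against 9.02% of all genes), with Ctss at -0.60 and Lgmn at -0.65 in the authors' deposited table. The median of the list there was -0.35, and that of all genes with a count 0.01.

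Of the 8 genes that load class I peptides, among them Tap1, Tap2 and Tapbp, none was called in clusters 0 to 9. Of all genes, 38.8% were called in at least 1 of these clusters with a count there. The immunoproteasome list held Psmb8, Psmb9 and Psmb10, subunits of the form of the proteasome that interferon induces. It also held Psme1 and Psme2 of the proteasome activator PA28. Of these 5 genes 4 were called lower in cluster 7, against 26.2% of all genes and 13.5% of those with a count. In the authors' deposited table Psmb8 was at -0.79, Psme2 at -0.74, Psmb9 at -0.69 and Psmb10 at -0.51, and Psme1 was at -0.43 without a call. Their median was -0.69, and that of all genes with a count in the cluster -0.04. The Reactome set for ubiquitination and proteasome degradation was at -0.22 there in the authors' deposited table, where the median of all sets was -0.10. Other proteasome subunits were not set beside these genes. The class I co-activator Nlrc5 was at 0.75 and the interferon gamma receptor chain Ifngr2 at -0.69 in the same cluster in the authors' deposited table. Socs1, which dampens this signal, was called in cluster 0, at -0.50 in the authors' deposited table.

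Of 15 other genes in the list of class I heavy chains, 6 were called in any of clusters 0 to 9, against 38.8% of all genes. With the folds of the authors' deposited tables, H2-Q4 (0.57) and H2-Q6 (0.50) were called higher in cluster 9. The share of all genes called there was 21.1%, and 3.58% of those with a count. H2-M3 (-0.61) was called lower in cluster 7, against 26.2% and 13.5%. H2-T24 (-1.998 in cluster 8) and H2-M5 (-1.20 in cluster 2) were called lower in the authors' deposited tables, at low mean levels of -4.96 and -8.29 log2 counts per 10000. H2-Ke6 was called at -0.85 in cluster 8 in the authors' deposited table. It stands in that list by its name, although it encodes a steroid dehydrogenase and no heavy chain. Of 10 co-stimulatory and related genes, 3 were called in any of clusters 0 to 9, against 38.8% of all genes. The authors' deposited tables put Cd83, which stabilises class II at the cell surface, at 2.40 in cluster 2, -2.14 in cluster 0 and -1.53 in cluster 3. All 3 were calls, at a mean level of only -8.17 log2 counts per 10000. Cd86 was called in cluster 2 (0.57) and Pdcd1lg2 in cluster 6 (-0.63), folds of the authors' deposited tables.

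The Reactome class II set that the authors scored over cells did not show the order of the class II chains. The fold of the Reactome set for class II antigen presentation in the authors' deposited pathway tables was -0.02, -0.01, 0.04, 0.02, 0.00 and 0.00 in clusters 0 to 5. In cluster 8, where 4 of the class II genes were called lower, it was 0.08 in the authors' deposited table, close to the median of all 2922 sets there, 0.09. The authors' deposited tables put the Reactome cross-presentation set at -0.35 in cluster 7, where the median of all sets was -0.10, and at 0.19 in cluster 8. The KEGG antigen processing and presentation set was at -0.03 in cluster 0 and 0.01 in cluster 1, and at -0.02 in cluster 8, where the median of all sets was 0.09, in the authors' deposited tables. They put the BioCarta MHC set, again in the authors' deposited tables, at -0.37 in cluster 7 and 0.14 in cluster 8. Which genes each set holds was not analysed here.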

How the data were processed

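The authors deposited, for each of 11 clusters, a gene table and a pathway table that set the cluster against the remaining cells of the 6 libraries together. The authors made the gene tables' log2 values, per the file headers, as a log2 fold change and a log2 mean expression, which sums to 10000 counts per cell. The deposited p-value of each gene has an adjusted p-value beside it. The deposited pathway tables add the authors' score per pathway. Scanpy and the mm10 build are named per the submitters' processing notes; for the aligner, cell filters, doublet handling and clustering settings the sources used here give nothing.

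Cell numbers were read from the deposited p-values of genes seen in 1 cell (7 clusters from both sides of the comparison, 4 from one). The deposited folds matched ratios of exponentiated mean log values, not of linear means as the planned levels assumed. Each cluster's mean and SD were solved from folds and p-values, assuming Welch statistics on log values, for 10641 of 10825 genes at log2 level -5 or above. In the 10 cells of cluster 10 the least number of cells with a count came out as 1.00, and 502 genes lay within 0.01 of 1 cell. Approximate counts use the linear level, the cell number and the median total per cell, the same total for every cluster. The linear level reads the deposited folds as if they were linear ratios. Poisson intervals cover 95% and counting error only. Python 3.11.15, pandas 2.3.3, numpy 2.4.6 and scipy 1.17.1 were used.

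No test between groups was made, since each was 1 library. All 9 members were named in every cluster, with up to 4 called genes of each list by size of fold (leaving out genes below the median level unless fewer than 2 remained), the 5 genes most alike by Pearson's r, and pathway sets with MHC or antigen presentation or processing in their name. H2-DMb1, Irf8, Psme1 and other values outside this rule were added after they were seen. The members and lists were chosen with earlier results of these data known.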

Additional observations from a re-analysis of the deposited data

How the results depend on the processing

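Of 78 recomputed values, 72 stayed within the limits set for a change. With a fold threshold of 0.25 class II had 9 higher calls in place of 0, and class I had 1 higher and 1 lower call in place of 0 each. With a threshold of 1 the lower class II calls were 4 in place of 7, and with folds centred on each cluster's median class II had 1 higher call (H2-Eb1 in cluster 1). The changed threshold, or the shift of all folds by the median, sets these counts. An adjusted p threshold of 0.001 left 5 lower class II calls. With B2m alone as class I, the class II minus class I median fold of cluster 7 was 0.018 in place of -0.16; the cause was not tested. In cluster 0 the difference, 0.03, was -0.01 with mean folds, -0.10 without Ciita, -0.03 with B2m alone and -0.01 with summed levels, so no direction is read there. Clusters 1 to 6 and 8 to 10 kept their direction under these 4 alternatives; cluster 8 lay between -1.62 and -0.73. Levels as linear means, an alternative chosen after seeing the data, gave a Cd74 ratio of 3.80 between highest and lowest cluster. They were built from the same deposited folds, read as if these were linear ratios. A like ratio was therefore built in, and it is no check on the scale. Such ratios of all members are among the 78 values. Of the 5 genes most like each target, 3 of 15 were among the 5 over clusters 0 to 5. No paired analysis was possible because each group was 1 library and the tables pool them. Counts under about 100 limit Cd74 and the chains in clusters 8 to 10, H2-Eb1 in cluster 7, H2-DMa in cluster 10 and all Ciita values in clusters 5 to 10.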
